A study of Caenorhabditis elegans with 9 samples.

Results

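The genes described here encode the FMRFamide-like peptides (flp) and neuropeptide-like proteins (nlp) of Caenorhabditis elegans. Members were all genes with a WormBase name of flp- or nlp- and a number, leaving out nlp-24 to nlp-34, a group of antimicrobial peptide genes of the epidermis. This gave 91 genes, 31 flp and 60 nlp, of 46875 genes listed. RNA was sequenced from whole worms at the late L2 stage, which had been synchronised by hypochlorite treatment and grown at 20 °C in 21% oxygen. The tested genotypes were sma-3(wk30), a mutant of a Smad of the DBL-1/BMP pathway, and sma-9(ok1628), a mutant of the Schnurri homologue of that pathway, and the control was wild-type N2. Each genotype had 3 biological replicates, and each mutant is represented by a single allele. In RNA from whole worms, a lower value from fewer cells of a type and from less RNA per cell cannot be told apart.

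Neuropeptide genes encode precursors that proprotein convertases such as EGL-3 and carboxypeptidases such as EGL-21 cut into short peptides, many of which are then amidated. The peptides are packed into dense core vesicles, are released with the help of the CAPS protein UNC-31 and act mainly on G protein-coupled receptors. The flp genes give peptides that end in Arg-Phe-amide, whereas the nlp genes are a mixed group of other peptide families. Most members are expressed in neurons, and some also in the intestine, gonad or epidermis. They are known for roles in sleep, egg laying, feeding, fat storage, locomotion and arousal.

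The libraries held 58889275 to 82735807 reads on genes. Values are given as CPM (counts relative to a library total, with the scaling of the deposited file). At this depth 3 reads corresponded to 0.0350 to 0.0503 CPM. The sma-3 transcript was at 12.6, 13.3 and 14.2 CPM in sma-3, 38.3, 37.2 and 36.6 CPM in sma-9, and 26.5, 21.4 and 22.4 CPM in wild-type worms. The sma-9 transcript was at 122, 114 and 129 CPM in sma-3, 173, 213 and 219 CPM in the libraries labelled sma-9, and 87.6, 89.4 and 119 CPM in wild-type worms, so its total level was higher, not lower, in its own mutant. In limma's test the sma-3 transcript fell by 0.76 on the log2 scale in sma-3 (adjusted p = 0.00101), and the sma-9 transcript rose by 1.03 in sma-9 (adjusted p = 0.00202). Wild-type replicate 3 was the lowest of the wild-type libraries for 50 of the 83 members tested, with a median of -0.12 on the log2 scale against the other wild-type libraries (-0.01 over all tested genes), and the counts of calls are therefore also given without it.

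Of the 91 genes, 83 reached 1 CPM in at least 3 libraries and were tested, 30 flp and 53 nlp. None of them passed through 1 genotype only, and 76 reached 1 CPM in all 9 libraries. The other 8 members, flp-23, nlp-4, nlp-22, nlp-23, nlp-39, nlp-60, nlp-63 and nlp-78, stayed at or below 1.11 CPM in every library. flp-23 had no read in any library. nlp-22, a sleep peptide gene of the RIA neurons, had 0, 0.0335 and 0.0365 CPM in sma-3, 0, 0.0134 and 0.0466 CPM in sma-9, and 0 CPM in every wild-type library, all at or near the floor of 3 reads.

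The tested members spanned a wide range in wild-type worms, with a median of 10.6 CPM and a lowest mean of 0.852 CPM. The highest was nlp-40, whose peptide is released from the intestine to time the expulsion step of defecation. It was at 124, 126 and 130 CPM in sma-3, 126, 129 and 136 CPM in sma-9 and 131, 118 and 114 CPM in wild-type worms, with overlapping libraries. nlp-36 was at 56.0, 62.2 and 67.2 CPM in sma-3, 57.5, 47.6 and 48.5 CPM in sma-9, and 70.3, 56.4 and 51.7 CPM in wild-type worms. flp-14 was at 56.5, 57.0 and 53.6 CPM in sma-3, 62.5, 63.2 and 63.9 CPM in sma-9, and 54.4, 56.9 and 51.3 CPM in wild-type worms, and every sma-9 library was above every other library. nlp-21 was at 42.8, 47.7 and 46.5 CPM in sma-3, 56.5, 49.5 and 47.8 CPM in sma-9 and 46.6, 47.3 and 35.1 CPM in wild-type worms. None of these 4 genes was called in limma's test in either mutant against wild-type, and the lowest adjusted p was 0.0812, for flp-14 in sma-9.

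Per kb of exon, the level of nlp-40 and that of nlp-36 were both 169 CPM per kb in wild-type worms, and nlp-49, flp-14 and flp-1 followed at 122, 114 and 105 CPM per kb. The spread between replicates of nlp-36 (59.5 ± 9.66 CPM, SD, n = 3) was too wide to place it above or below nlp-40 on the scale per kb. Exons of nlp-36 lie opposite those of dars-1, at 332 CPM in wild-type worms. The strand setting of the counting was not given in the sources used here, so the level of nlp-36 is uncertain. The same limit holds for nlp-21 and flp-11, whose exons lie opposite those of subs-4 and tmem-135, at 55.7 and 29.5 CPM in wild-type worms. subs-4 fell in sma-3 (log2 fold change -0.74, limma adjusted p = 0.00335). Per kb, the median over tested flp genes was 31.4 and that over tested nlp genes was 12.7 CPM per kb in wild-type worms. The 10 members with the highest wild-type CPM held 38.2% of the summed CPM of all members in sma-3, 39.2% in sma-9 and 40.9% in wild-type worms. Replicates of tested members varied by a median coefficient of variation of 5.05% in sma-3, 7.60% in sma-9 and 9.84% in wild-type worms. The plot of levels per kb gives the most abundant genes library by library.

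**Figure D1:**
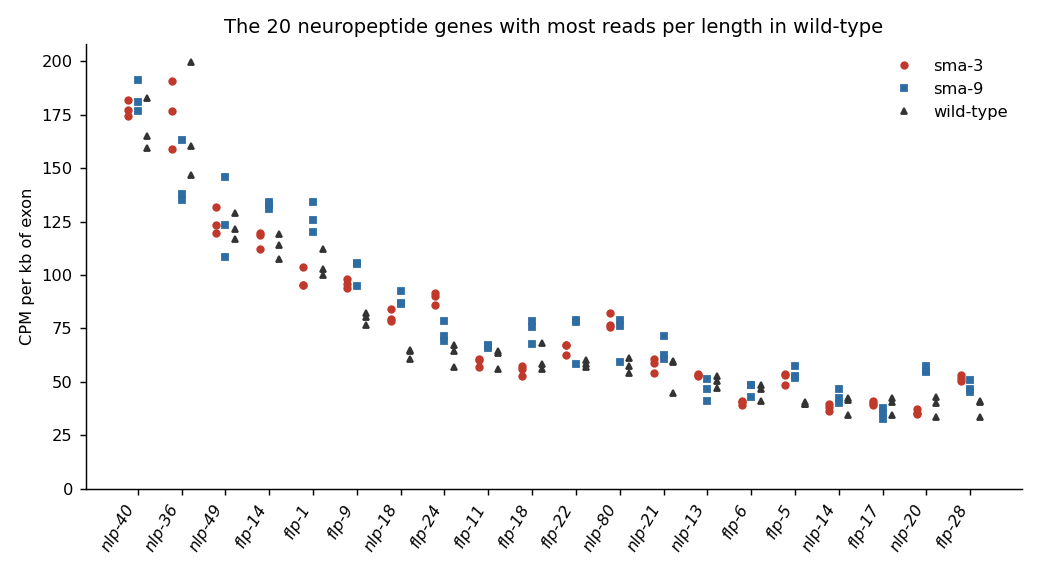
CPM per kb of exon (y axis) of the 20 members highest in wild-type worms on this scale, each point 1 library of sma-3 (circles), sma-9 (squares) or wild-type (triangles). nlp-40 and nlp-36, both at 169 CPM per kb in wild-type worms, stood above the rest, and for most genes the genotypes were close or overlapping.

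The first comparison asked which members differed between sma-3 mutants and wild-type worms. The summed level of the 91 genes was 1676, 1637 and 1662 CPM in sma-3 against 1536, 1572 and 1422 CPM in wild-type worms, and the libraries did not overlap. Of 83 members tested, 18 rose and 0 fell (limma on log2(CPM + 1), adjusted p at most 0.05), with log2 fold changes of 0.26 to 1.08. These were nlp-67, flp-8, nlp-70, nlp-46, flp-10, flp-24, nlp-80, flp-28, nlp-7, nlp-68, flp-13, nlp-47, flp-5, flp-21, flp-16, nlp-18, nlp-3 and flp-9. Over all 13105 tested genes 21.5% were called in either direction, 9.36% higher and 12.2% lower, so the total share of members called, 21.7%, was near the background, and the members' calls were all in 1 direction. At an unadjusted p under 0.05, 26 members were higher and 2 lower, and the share of all tested genes at this threshold is not given here. The log2 fold change was above 0 in 65 of 83 members (48.0% of all tested genes), and its median was 0.16 over the members and -0.01 over all tested genes. In 37 members every sma-3 library was above every wild-type library, and in 4 members below (18% and 23.5% of all tested genes).

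The number of sma-3 calls depended on single libraries, as did calls over all tested genes (2823, and 1380 without sma-3 replicate 2). Without sma-3 replicate 2 it was 9, because flp-9, flp-10, flp-13, flp-16, flp-21, nlp-3, nlp-7, nlp-68 and nlp-80 were lost at log2 fold changes of 0.28 to 0.45 and adjusted p of 0.0508 to 0.110. Without sma-3 replicate 1, 12 calls were made and the 6 lost were flp-9, flp-13, flp-21, nlp-3, nlp-7 and nlp-80, at log2 fold changes of 0.26 to 0.39. Without sma-3 replicate 3, 14 calls were made and flp-9, flp-21, nlp-3 and nlp-80 were lost at 0.24 to 0.44. Without wild-type replicate 1, flp-9, nlp-3, nlp-7 and nlp-80 were lost at 0.27 to 0.39, and without wild-type replicate 2, flp-21 and nlp-80 at 0.30 to 0.43. Without wild-type replicate 3, 18 members rose, flp-12 fell by 0.25 on the log2 scale and the median over members was 0.11. The 8 sma-3 calls made under every alternative in which the gene was tested, other than a 2-fold minimum, were flp-5, flp-8, flp-24, nlp-18, nlp-46, nlp-47, nlp-67 and nlp-70, of which nlp-46 and nlp-70 were not tested under the filter of a mean of 5 CPM.

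The next comparison set sma-9 mutants against the same wild-type libraries. The summed level of the 91 genes was 1717, 1769 and 1804 CPM in sma-9 against 1536, 1572 and 1422 CPM in wild-type worms. Of 83 members, 17 rose and 0 fell, with log2 fold changes of 0.28 to 0.81. These were flp-3, nlp-70, nlp-7, nlp-20, nlp-68, nlp-46, nlp-18, flp-21, flp-12, nlp-15, flp-5, flp-13, flp-32, nlp-35, flp-16, flp-9 and flp-19. Thus 20.5% of tested members were called, beside 6.88% of all tested genes, and all calls were higher, beside 3.02% higher and 3.85% lower over all tested genes. At an unadjusted p under 0.05, 41 members were higher and 0 lower, again without the share of all tested genes at this threshold. The log2 fold change was above 0 in 77 members (50.8% of all tested genes), and the median was 0.24 over the members and 0.00 over all tested genes. In 47 members every sma-9 library was above every wild-type library, and in 0 members below (10.2% and 12% of all tested genes).

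The sma-9 calls also depended on single libraries, as did calls over all tested genes. These were 901, beside 555 without sma-9 replicate 2 and 487 without sma-9 replicate 3. Without sma-9 replicate 2, 7 members were called, with flp-9, flp-12, flp-13, flp-16, flp-19, flp-21, flp-32, nlp-7, nlp-35 and nlp-46 lost at log2 fold changes of 0.30 to 0.55. Without sma-9 replicate 3 there were 8, and the same members except nlp-7 were lost at 0.25 to 0.49. Without sma-9 replicate 1, flp-13, flp-19, flp-32 and nlp-35 were lost at 0.28 to 0.40. Without wild-type replicate 1 the same 4 members were lost at 0.26 to 0.42, and without wild-type replicate 2 these and flp-21 at 0.28 to 0.46. Without wild-type replicate 3 there were 18 calls, with flp-13 alone lost, at 0.34, and calls gained that included nlp-51, at 0.68. The sma-3 libraries entered this fit through the shared spread: without sma-3 replicate 1, 2 or 3, 4 or 5 calls out of flp-13, flp-16, flp-19, flp-32 and nlp-35 were lost at unchanged log2 fold changes of 0.28 to 0.40. With the sma-9 and wild-type libraries alone, 5 members were called, beside 445 of all tested genes. The 4 sma-9 calls made under every alternative in which the gene was tested, other than a 2-fold minimum, were flp-3, flp-5, nlp-18 and nlp-70, the last not tested with a mean of 5 CPM as filter.

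The labels give library numbers, 14 to 16 for sma-3 and 6 to 10 for the other genotypes, so the numbers and the sma-3 genotype cannot be told apart. Among low numbers, the difference of sma-9 replicate 1 from wild-type replicates 1 and 2 had a median of 0.15 over tested members and 0.01 over all tested genes, and 69 of 83 members were above 0 (52.6% of all tested genes). Among high numbers, the difference of sma-9 replicates 2 and 3 from wild-type replicate 3 had a median of 0.33 over members and 0.00 over all tested genes, and 79 members were above 0 (50.1% of all tested genes). A fit with a term for the number used the sma-9 and wild-type libraries alone, where 5 members were called without the term. With it, 11 of the 17 sma-9 calls made with all 9 libraries were made, and nlp-21 was called in addition. Those of flp-9, flp-19, flp-21, flp-32, nlp-35 and nlp-46 were not made.

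**Figure D2:**
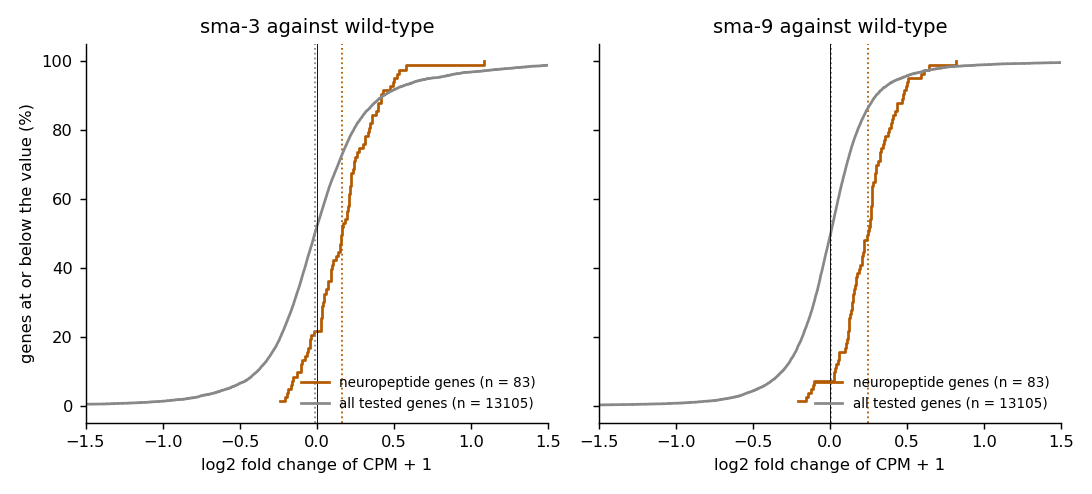
Cumulative share of genes (y axis, %) at or below each log2 fold change of CPM + 1 (x axis) for the 83 tested members and all 13105 tested genes, sma-3 against wild-type on the left and sma-9 against wild-type on the right, with medians as dotted lines. The members' medians, 0.16 and 0.24, lay above the medians of all genes, while the largest changes of either sign among all genes lay beyond those of the members.

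In the 2 comparisons, which share the wild-type libraries, 10 members rose in both mutants, 8 in sma-3 only by these calls and 7 in sma-9 only. Because of the shared libraries this overlap is a count only. A call in 1 mutant alone does not show a difference between the mutants, which the direct comparison of sma-3 with sma-9 tested. There, 14 of 83 members were called, 3 higher and 11 lower in sma-3 (16.9% of members, beside 17.7% of all tested genes, 8.56% higher and 9.10% lower). The log2 fold change was above 0 in 29 members (46.7% of all tested genes), with a median of -0.06 over the members and -0.02 over all tested genes. In 12 members every sma-3 library was above every sma-9 library, and in 25 members below (19.6% and 22.8% of all tested genes).

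**Figure D3:**
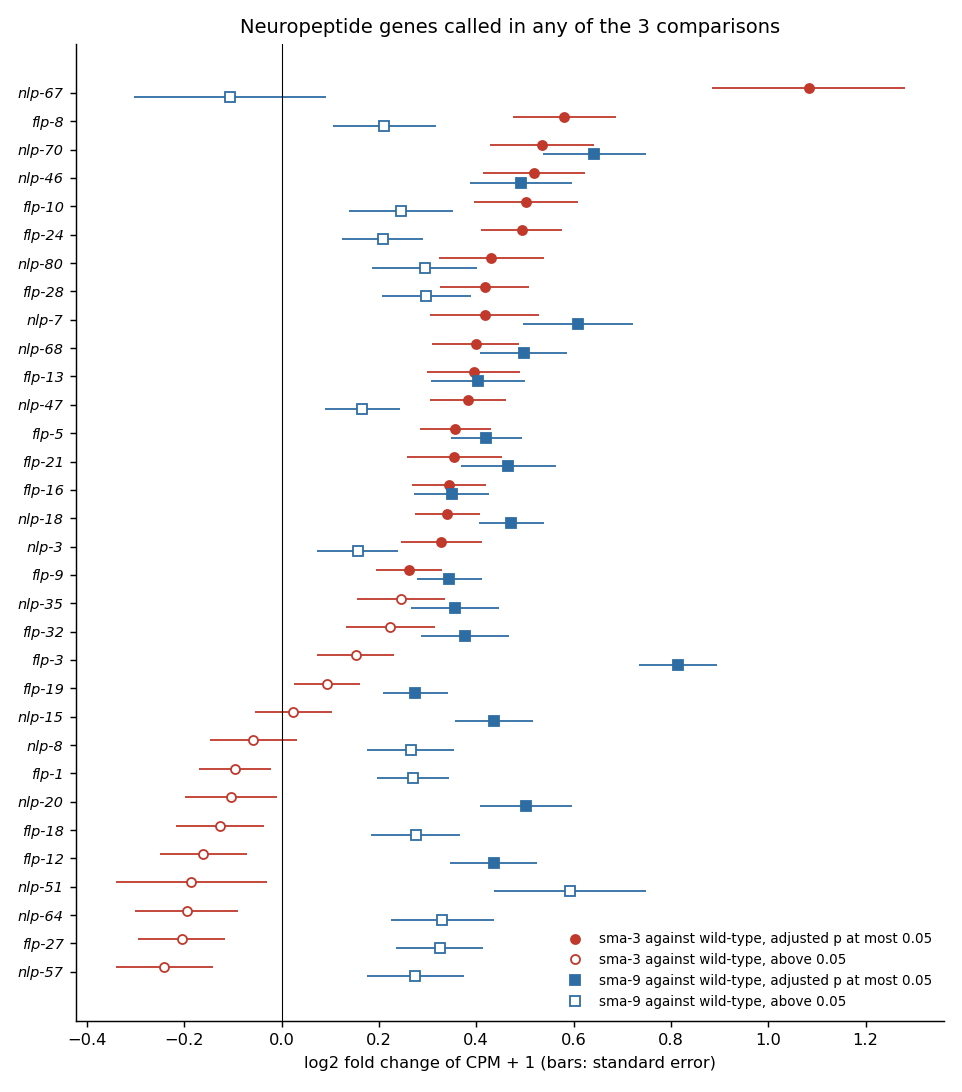
Log2 fold change of CPM + 1 with its standard error (x axis) of the 32 members called in any comparison, circles for sma-3 and squares for sma-9, each against wild-type, filled where the adjusted p was at most 0.05. The members run from nlp-67, at 1.08 in sma-3, to nlp-57, at -0.24 in sma-3, and members low in the plot had sma-9 above wild-type and sma-3 near or below it.

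Among peptide genes linked to sleep, flp-13 and flp-24 rose in sma-3. Both act in the ALA neuron, which drives sleep after cellular stress. flp-24 (WBGene00016028, III:725119-726155) was at 40.9, 38.4 and 40.2 CPM in sma-3, 31.9, 30.8 and 34.9 CPM in sma-9, and 28.8, 29.9 and 25.4 CPM in wild-type worms. The mutants did not overlap wild-type, and the rise passed in sma-3 (log2 fold change 0.49 ± 0.08 SE, adjusted p = 0.00405) but not in sma-9 (0.21, adjusted p = 0.181). The direct difference was 0.29 (adjusted p = 0.0435), a call lost under 12 of 21 alternatives. flp-13 was at 34.1, 29.7 and 29.2 CPM in sma-3, 33.6, 31.03 and 29.01 CPM in sma-9, and 23.8, 25.1 and 21.1 CPM in wild-type worms, and its log2 fold changes were 0.39 (adjusted p = 0.0194) and 0.40 (adjusted p = 0.036). The libraries of either mutant were above all wild-type libraries. The flp-13 call was lost under 3 of 21 alternatives in sma-3 and 11 of 22 in sma-9.

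The other sleep genes were not called against wild-type. nlp-8, also of ALA, was at 24.1, 21.1 and 21.4 CPM in sma-3, 26.4, 31.1 and 26.7 CPM in sma-9 and 22.6, 22.6 and 24.2 CPM in wild-type worms. Its level in sma-3 was below that in sma-9 (-0.32, adjusted p = 0.0363), a call lost under 8 of 21 alternatives. flp-11, of the sleep-promoting RIS neuron, was at 45.1, 42.2 and 44.5 CPM in sma-3, 49.6, 48.9 and 49.3 CPM in sma-9, and 46.9, 47.6 and 41.4 CPM in wild-type worms. flp-11 in sma-9 lay above all other libraries without passing the test (0.12, adjusted p = 0.37). nlp-14, an orcokinin-like peptide gene, was at 39.3, 37.1 and 40.3 CPM in sma-3, 43.3, 47.8 and 41.1 CPM in sma-9 and 42.3, 43.4 and 35.1 CPM in wild-type worms, and both mutants overlapped wild-type.

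Of 4 egg-laying genes, 3 rose in sma-3, where 9.36% of all tested genes were called higher. These calls were lost under 2 of 21 alternatives for flp-10, 6 of 21 for nlp-3 and 6 of 20 for nlp-7. flp-10 encodes a peptide that inhibits egg laying through the receptor EGL-6, and was at 9.11, 11.8 and 10.2 CPM in sma-3, 7.82, 8.85 and 8.78 CPM in sma-9, and 7.45, 6.92 and 6.63 CPM in wild-type worms. It rose in sma-3 (0.50 ± 0.11 SE, adjusted p = 0.0114) and was not called in sma-9 (0.24, adjusted p = 0.218) or between the mutants (0.26, adjusted p = 0.132). flp-17, which encodes the other EGL-6 ligand of this list, was at 30.01, 28.5 and 29.04 CPM in sma-3, 23.8, 25.8 and 27.4 CPM in sma-9, and 29.6, 30.99 and 25.05 CPM in wild-type worms, and was not called in any comparison. nlp-3, which promotes egg laying, was at 22.5, 20.0 and 20.4 CPM in sma-3, 17.3, 18.8 and 19.4 CPM in sma-9 and 15.4, 17.04 and 17.02 CPM in wild-type worms. It rose by 0.33 on the log2 scale in sma-3 (adjusted p = 0.0227) and 0.16 in sma-9 (adjusted p = 0.316). nlp-7, which inhibits egg laying, was at 4.71, 4.80 and 3.96 CPM in sma-3, 4.80, 5.82 and 5.20 CPM in sma-9 and 2.74, 3.45 and 3.15 CPM in wild-type worms. It rose in sma-3 (0.42, adjusted p = 0.0285) and in sma-9 (0.61, adjusted p = 0.0121), and the rise therefore included genes of opposite known action. These animals were larvae, before egg laying begins.

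Among genes linked to feeding, fat and aggregation, flp-21 rose in both mutants. flp-21 and flp-18 encode ligands of the receptor NPR-1, which governs aggregation on food. flp-21 was at 12.5, 10.9 and 11.2 CPM in sma-3, 11.7, 13.8 and 12.2 CPM in sma-9 and 9.47, 8.15 and 8.83 CPM in wild-type worms, with log2 fold changes of 0.35 (adjusted p = 0.0304) and 0.47 (adjusted p = 0.0201). The libraries of either mutant lay above all wild-type libraries. flp-18 was at 54.7, 51.4 and 55.8 CPM in sma-3, 65.6, 73.5 and 76.1 CPM in sma-9 and 56.6, 66.3 and 54.7 CPM in wild-type worms. flp-18 was not called against wild-type, but sma-3 had less of it than sma-9 (-0.40, adjusted p = 0.0168). flp-7, whose peptide signals fat loss in the intestine, was at 11.2, 10.6 and 13.1 CPM in sma-3, 13.1, 14.7 and 12.7 CPM in sma-9, and 11.01, 11.5 and 9.29 CPM in wild-type worms, with no call. flp-34, linked to olfactory learning, was at 6.15, 5.92 and 5.86 CPM in sma-3, 4.29, 4.92 and 5.92 CPM in sma-9 and 5.20, 3.62 and 5.68 CPM in wild-type worms. All sma-3 libraries of flp-34 were above wild-type without passing the test (0.28, adjusted p = 0.23). nlp-12, a cholecystokinin-like gene of the DVA neuron, was at 13.1, 12.2 and 12.2 CPM in sma-3, 14.4, 12.8 and 11.8 CPM in sma-9 and 10.3, 11.4 and 10.3 CPM in wild-type worms, so its mutant libraries were all above wild-type without passing the test (0.21 and 0.26, adjusted p = 0.141 and 0.134).

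None of the genes linked to locomotion and arousal was called against wild-type. flp-1, which acts in locomotion, was at 71.3, 65.4 and 65.3 CPM in sma-3, 86.2, 82.6 and 92.3 CPM in sma-9 and 68.7, 76.9 and 70.5 CPM in wild-type worms. The sma-3 level was below the sma-9 level (-0.37 ± 0.07 SE, adjusted p = 0.0111), with all sma-9 libraries above all others. nlp-49, an arousal peptide gene that acts through the receptor SEB-3, was at 79.1, 71.6 and 74.1 CPM in sma-3, 64.9, 73.9 and 87.4 CPM in sma-9 and 70.04, 77.5 and 73.0 CPM in wild-type worms, and its genotypes overlapped. flp-20, of the touch receptor neurons, was at 5.20, 6.73 and 5.96 CPM in sma-3, 7.16, 7.43 and 6.57 CPM in sma-9 and 4.97, 5.48 and 5.12 CPM in wild-type worms. For flp-20 the sma-9 libraries were above wild-type (0.38, adjusted p = 0.0646). flp-2, also linked to arousal, was at 10.3, 8.99 and 10.5 CPM in sma-3, 10.1, 9.30 and 9.87 CPM in sma-9, and 8.93, 10.0 and 7.86 CPM in wild-type worms, with overlap throughout.

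The remaining called members belonged to no role list and are grouped by their calls. The largest change was that of nlp-67 (WBGene00011227, X:16184369-16185722), a neuropeptide-like gene. It was at 17.4, 23.1 and 21.9 CPM in sma-3, 10.8, 7.33 and 7.72 CPM in sma-9, and 10.0, 11.4 and 6.79 CPM in wild-type worms, so every sma-3 library was above all others while sma-9 and wild-type overlapped. The log2 fold change was 1.08 ± 0.20 SE in sma-3 (adjusted p = 0.00582), -0.11 in sma-9 (adjusted p = 0.805) and 1.19 ± 0.20 SE between sma-3 and sma-9 (adjusted p = 0.0043). nlp-67 was the only member to pass 2-fold as well, against wild-type and against sma-9. flp-8 (WBGene00001451, X:14881419-14882267) was at 34.8, 36.2 and 33.2 CPM in sma-3, 26.4, 26.2 and 27.3 CPM in sma-9, and 26.1, 23.9 and 19.1 CPM in wild-type worms. It rose in sma-3 (0.58 ± 0.11 SE, adjusted p = 0.00567), and was higher in sma-3 than in sma-9 (0.37, adjusted p = 0.0411), a call lost under 9 of 21 alternatives.

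Others called in sma-3 alone showed a smaller rise. nlp-47, which encodes a peptide like gonadotropin-releasing and adipokinetic hormones, was at 21.9, 20.7 and 22.04 CPM in sma-3, 17.3, 18.2 and 19.8 CPM in sma-9, and 15.7, 16.9 and 16.3 CPM in wild-type worms. It rose by 0.38 ± 0.08 SE on the log2 scale in sma-3 (adjusted p = 0.0089), with every sma-3 library above all others, and 0.17 in sma-9 (adjusted p = 0.247). flp-28 was at 29.1, 28.2 and 27.6 CPM in sma-3, 25.5, 24.6 and 27.9 CPM in sma-9, and 22.4, 22.2 and 18.4 CPM in wild-type worms (0.42 in sma-3, adjusted p = 0.0125). nlp-80 was at 43.8, 40.3 and 40.8 CPM in sma-3, 31.6, 42.0 and 40.5 CPM in sma-9 and 28.7, 30.6 and 32.6 CPM in wild-type worms (0.43 in sma-3, adjusted p = 0.0221). For flp-28 and nlp-80 the mutants overlapped each other.

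Several members of no role list rose in both mutants. nlp-18 (WBGene00003756, II:11027972-11030397) was at 44.3, 41.9 and 41.4 CPM in sma-3, 45.6, 45.7 and 48.8 CPM in sma-9, and 33.97, 34.3 and 31.9 CPM in wild-type worms. The log2 fold changes were 0.34 (adjusted p = 0.00769) and 0.47 (adjusted p = 0.00314), and the replicates of each genotype were close together. flp-5 was at 31.2, 28.4 and 31.4 CPM in sma-3, 31.01, 30.5 and 33.8 CPM in sma-9 and 23.8, 23.2 and 23.3 CPM in wild-type worms, with log2 fold changes of 0.36 (adjusted p = 0.00947) and 0.42 (adjusted p = 0.00915). nlp-70 was at 4.02, 3.64 and 3.05 CPM in sma-3, 3.70, 4.24 and 3.79 CPM in sma-9 and 2.20, 2.02 and 2.21 CPM in wild-type worms, with log2 fold changes of 0.54 (adjusted p = 0.00827) and 0.64 (adjusted p = 0.00745). For nlp-18, flp-5 and nlp-70, no mutant library overlapped wild-type. nlp-68 was at 6.25, 6.27 and 5.99 CPM in sma-3, 6.32, 6.38 and 7.39 CPM in sma-9, and 4.61, 4.36 and 4.35 CPM in wild-type worms (0.40 and 0.50, adjusted p = 0.0137 and 0.0105). flp-9 was at 60.5, 59.4 and 62.1 CPM in sma-3, 60.04, 66.7 and 66.4 CPM in sma-9, and 50.8, 52.0 and 48.5 CPM in wild-type worms (0.26 and 0.34, adjusted p = 0.0237 and 0.0151). The wild-type libraries of nlp-68 and flp-9 were the lowest for each gene.

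The rise of flp-16 and nlp-46 rests on reads that may not all be theirs, since exons of each lie opposite exons of a protein-coding gene and the strand setting is unknown. flp-16 was at 28.4, 28.95 and 26.8 CPM in sma-3, 27.98, 27.6 and 28.9 CPM in sma-9 and 22.9, 22.96 and 20.0 CPM in wild-type worms (0.34 and 0.35, adjusted p = 0.0135 and 0.025). Its antisense partner romo-1 had log2 fold changes of -0.07 and -0.10. nlp-46, at 1.88, 2.164 and 2.13 CPM in sma-3, 1.99, 1.97 and 2.04 CPM in sma-9 and 1.21, 1.31 and 0.899 CPM in wild-type worms, rose by 0.52 and 0.49 on the log2 scale (adjusted p = 0.00874 and 0.0216). Its partner T28H10.1 had log2 fold changes of 0.07 and -0.06, and neither partner was called. In all, 17 of the 91 members share exon bases with another gene, 12 of them antisense to a protein-coding gene. The called flp-19 (opposite abl-1) and nlp-35 (opposite C33A12.19, with log2 fold changes of 0.32 and 0.44 that were not called) are among these, and so is flp-8, opposite a non-coding RNA with no read.

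**Figure D4:**
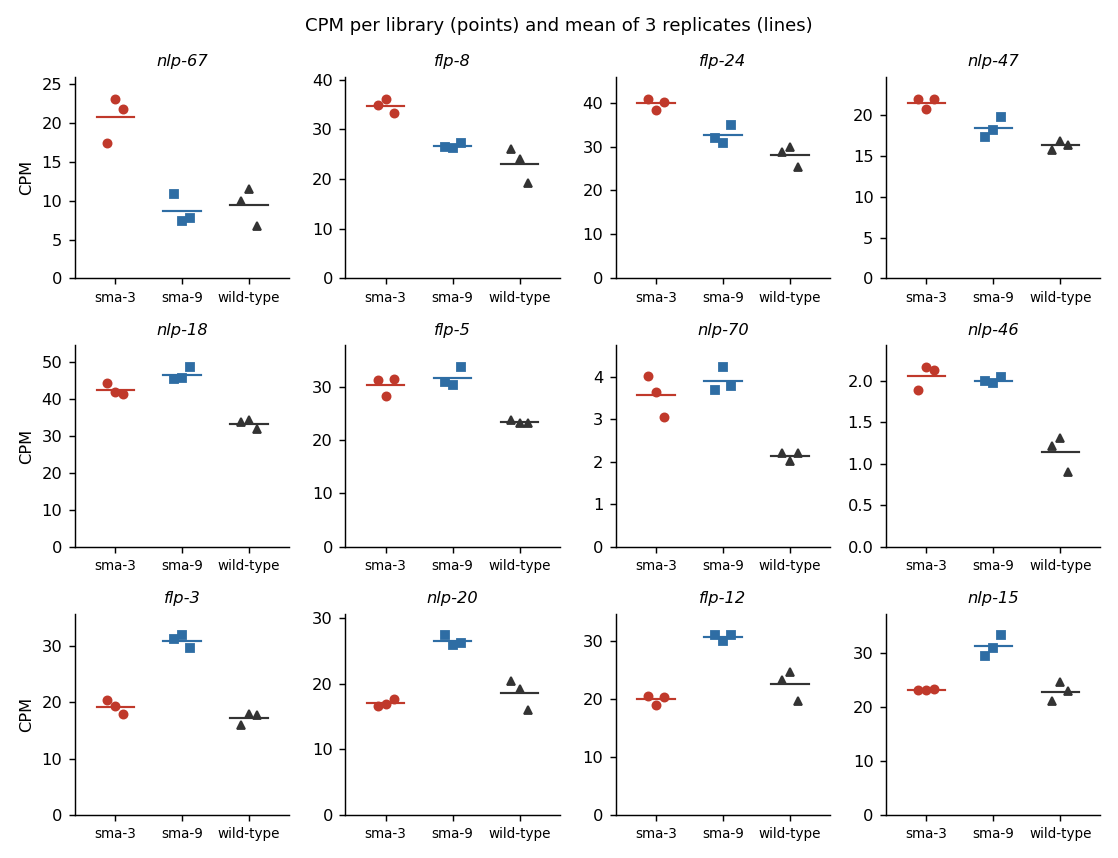
CPM (y axis, from 0) in each library of sma-3 (circles), sma-9 (squares) and wild-type (triangles) for 12 members, with a line at the mean of 3 replicates. In the upper row sma-3 was highest, in the middle row both mutants were above wild-type (nlp-18 at 41.4 to 48.8 against 31.9 to 34.3 CPM), and in the lower row sma-9 was highest (flp-3 at 29.7 to 31.9 CPM).

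Several members were high in sma-9 only. flp-3 (WBGene00001446, X:10091946-10092964), linked to male responses to pheromone, was at 20.3, 19.3 and 17.9 CPM in sma-3, 31.2, 31.9 and 29.7 CPM in sma-9, and 16.0, 17.9 and 17.6 CPM in wild-type worms. The log2 fold change was 0.81 ± 0.08 SE in sma-9 (adjusted p = 0.000387) and -0.66 ± 0.08 SE between sma-3 and sma-9 (adjusted p = 0.000862), while sma-3 was not called against wild-type (0.15, adjusted p = 0.206). Every sma-9 library was far above the other libraries. nlp-20 was at 16.6, 16.9 and 17.8 CPM in sma-3, 27.4, 25.9 and 26.3 CPM in sma-9 and 20.5, 19.1 and 16.0 CPM in wild-type worms (0.50 in sma-9, adjusted p = 0.0131, and -0.61 between the mutants, adjusted p = 0.00315). flp-12 was at 20.6, 19.01 and 20.4 CPM in sma-3, 31.04, 30.1 and 31.05 CPM in sma-9 and 23.4, 24.6 and 19.7 CPM in wild-type worms (0.44 in sma-9, adjusted p = 0.019, and -0.60 between the mutants, adjusted p = 0.00277). nlp-15, an orcokinin-like gene, was at 23.2, 23.2 and 23.5 CPM in sma-3, 29.6, 31.1 and 33.4 CPM in sma-9 and 21.1, 24.6 and 23 CPM in wild-type worms (0.44 in sma-9, adjusted p = 0.0113, and -0.41 between the mutants, adjusted p = 0.00875). In nlp-20, flp-12 and nlp-15, as in flp-3, sma-9 was above all other libraries and sma-3 did not differ from wild-type by the test.

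A further 3 genes rose in sma-9 by calls that were lost under most alternatives. flp-19 was at 25.3, 24.6 and 23.9 CPM in sma-3, 27.95, 26.9 and 29.2 CPM in sma-9 and 22.4, 23.2 and 23.4 CPM in wild-type worms (0.28 in sma-9, adjusted p = 0.0396). flp-32 was at 9.68, 10.2 and 10.2 CPM in sma-3, 10.9, 11.04 and 11.8 CPM in sma-9 and 8.97, 7.497 and 8.90 CPM in wild-type worms (0.38 in sma-9, adjusted p = 0.0373). nlp-35 was at 7.91, 6.88 and 7.96 CPM in sma-3, 8.25, 8.37 and 8.13 CPM in sma-9 and 5.77, 6.50 and 6.43 CPM in wild-type worms (0.36 in sma-9, adjusted p = 0.0466). In all 3 genes both mutants were above wild-type in every library and sma-9 was highest. The call of flp-19 was lost under 12 of 22 alternatives, and the calls of flp-32 and nlp-35 under 14 each.

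Among members called only between the mutants, sma-3 was lower than sma-9. nlp-51 was at 7.10, 7.20 and 6.31 CPM in sma-3 against 9.73, 14.8 and 13.5 CPM in sma-9, and at 6.75, 8.09 and 9.14 CPM in wild-type worms (-0.78 ± 0.16 SE, adjusted p = 0.0102). flp-27 was at 11.6, 11.3 and 12.1 CPM in sma-3 against 16.8, 17.7 and 17.4 CPM in sma-9, and at 12.5, 15.3 and 13.2 CPM in wild-type worms (-0.53 ± 0.09 SE, adjusted p = 0.0044). For flp-27 the wild-type libraries lay between those of the mutants. nlp-64 and nlp-57 had the same order, and their direct log2 fold changes were -0.53 and -0.52. nlp-8, flp-1 and flp-18 complete this group. Calls in the direct comparison also moved with single libraries, as did those over all tested genes. Over all tested genes they were 2315, beside 970 without sma-3 replicate 2 and 1005 without sma-3 replicate 3. Among the members, 9 calls were made without sma-3 replicate 2, and flp-1, flp-8, flp-18, flp-24 and nlp-8 were lost at absolute log2 fold changes of 0.29 to 0.37. Without sma-3 replicate 3, 8 calls were made, since these 5 and nlp-64 were lost at 0.28 to 0.50. Without sma-9 replicate 2 or 3, 10 calls were made, and flp-8, flp-18, flp-24 and nlp-8 were lost at 0.25 to 0.39. flp-8 and flp-24 were also lost without sma-3 replicate 1 or sma-9 replicate 1, at 0.27 to 0.37, and flp-24 without wild-type replicate 1, at 0.29. Without wild-type replicate 3, 3 members were higher and 13 lower. The 7 calls made under every alternative in which the gene was tested, other than a 2-fold minimum, were flp-3, flp-12, flp-27, nlp-15, nlp-20, nlp-57 and nlp-67, and nlp-57 was not tested with the filter of a mean of 5 CPM.

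The 38 tested members not named for a role, a call or a high level had wild-type means of 0.852 to 38.2 CPM. Their log2 fold changes were -0.17 to 0.47 in sma-3, with 31 above 0, and -0.15 to 0.48 in sma-9, with 35 above 0. In 13 of them every sma-3 library was above, and in 1 below, every wild-type library (18% and 23.5% of all tested genes), and in 12 every sma-9 library was above and in 0 below (10.2% and 12%). No adjusted p was below 0.0594 in sma-3 or 0.0684 in sma-9.

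Position in the genome was not used to choose the members. The X chromosome (assembly WBcel235) held 32 of the 91 genes, and 30 of the 83 tested members (36.1%) lay there, beside 15.5% of all tested genes. Of the X-linked tested members 6 were called in sma-3 and 6 in sma-9, beside 12 and 11 of 53 on the autosomes. Over all 2029 tested X genes, 10.6% were called higher in sma-3 and 2.12% in sma-9. The median log2 fold change was 0.13 on the X and 0.21 on the autosomes in sma-3, and 0.23 and 0.25 in sma-9, beside 0.05 and -0.02 over all tested genes in sma-3 and 0.00 and 0.00 in sma-9. A cluster on the X held flp-2 and flp-3, 1466 bp apart, and flp-28, 3980 bp from flp-3. These neighbours had unlike changes, since in sma-9 flp-3 rose by 0.81 on the log2 scale while flp-2 was at 0.12 (adjusted p = 0.565) and flp-28 at 0.30 (adjusted p = 0.0909). In sma-3 the called gene of the cluster was flp-28.

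Members with the most similar profile over the 9 libraries were found by Pearson's r of log2(CPM + 1), which is a description of libraries that share genotype and depth. The highest values were those of nlp-18 with nlp-68 (r = 0.979), flp-12 with nlp-20 (0.976), flp-16 with nlp-46 (0.971) and flp-5 with nlp-68 (0.967). For nlp-67 the closest was flp-8 (0.850), and for flp-3 it was flp-19 (0.944).

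Genes that process, store or receive the peptides were set beside the members. In 92 tested receptor genes of neuropeptide families, 8 rose in sma-3 and 0 fell, with a median log2 fold change of 0.17. The share that rose, 8.70%, was near the 9.36% of all tested genes called higher. The log2 fold change was above 0 in 79 of the 92 receptors in sma-3 and 73 in sma-9 (48.0% and 50.8% of all tested genes). npr-40 was at 15.8, 19.3 and 19.5 CPM in sma-3, 6.64, 5.87 and 9.74 CPM in sma-9 and 7.85, 7.31 and 5.21 CPM in wild-type worms (1.31 in sma-3, adjusted p = 0.00213), and its sma-3 libraries were above all others, as for nlp-67. The other 7 were npr-31 (0.57), dmsr-8 (0.55), dmsr-4 (0.46), npr-18 (0.45), npr-24 (0.40), npr-12 (0.39) and gnrr-5 (0.36). In sma-9, frpr-16 rose (0.54, adjusted p = 0.032) and no receptor fell, with a median of 0.10. egl-6 and npr-1, which encode receptors of the called flp-10 and flp-21, had log2 fold changes of 0.37 (adjusted p = 0.0568) and 0.18 (adjusted p = 0.351) in sma-3 and were not called in sma-9.

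Of 10 processing genes, bli-4 rose (0.34, adjusted p = 0.0263), and aex-5 (-0.29, adjusted p = 0.0224) and cpd-1 (-0.58, adjusted p = 0.0369) fell in sma-3. aex-5, which encodes a convertase, rose in sma-9 (0.29, adjusted p = 0.0449). The convertase gene egl-3, at 290 ± 18.3 CPM in sma-3, 291 ± 36.99 CPM in sma-9 and 285 ± 25.8 CPM in wild-type worms (SD, n = 3), had log2 fold changes of 0.02 and 0.02. Of 12 dense core vesicle genes, ric-19 fell in sma-3 (-0.29, adjusted p = 0.0334) and none was called in sma-9. Of 5 other neuropeptide genes, pdf-1, which promotes roaming, rose in sma-9 (0.51, adjusted p = 0.00274) and none was called in sma-3. The log2 fold change was above 0 in 3 of these 5 in sma-3 and in all 5 in sma-9 (48.0% and 50.8% of all tested genes). Their medians were 0.01 and 0.33. The plot of fold changes by list sets these lists beside the members.

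**Figure D5:**
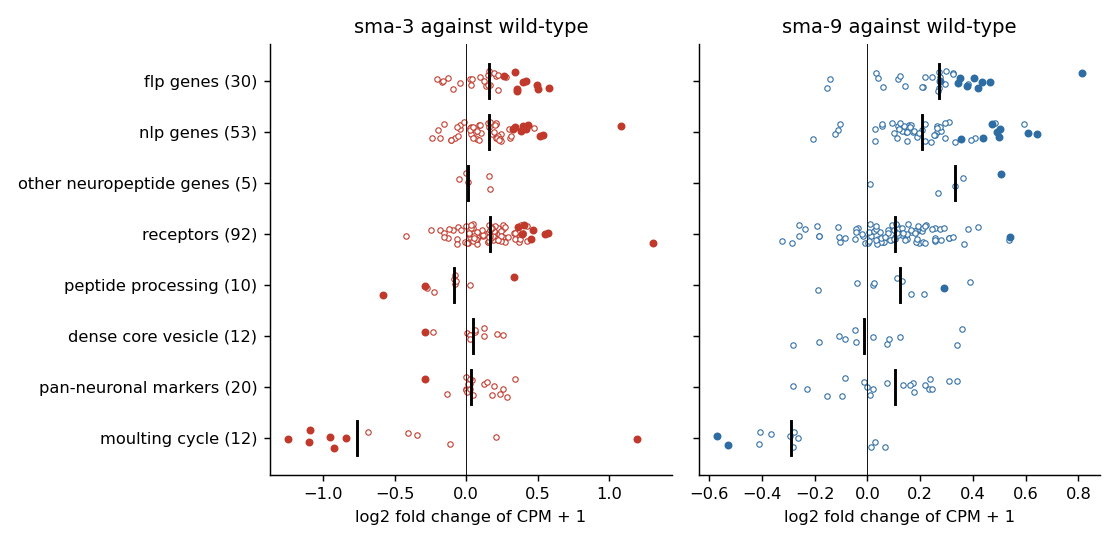
Log2 fold change of CPM + 1 (x axis) of each tested gene in 8 lists (rows, number of genes in brackets), sma-3 against wild-type on the left and sma-9 against wild-type on the right, filled where the adjusted p was at most 0.05, with a bar at the median. The flp genes, nlp genes, other neuropeptide genes (0.01 and 0.33), receptors (0.17 and 0.10) and pan-neuronal markers (0.03 and 0.10) had medians above 0. Those of the moulting cycle genes were -0.77 in sma-3 and -0.29 in sma-9.

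Markers of neurons and other tissues bear on whole-worm values. Of 20 pan-neuronal markers, 0 rose and 1, ric-19, fell in sma-3, and 0 were called in sma-9, with medians of 0.03 and 0.10. The markers egl-3, ric-19, unc-31, ida-1 and unc-104 are also in the processing or dense core vesicle list, so the fall of ric-19 is the one given above. The log2 fold change was above 0 in 16 of the markers in sma-3 and 13 in sma-9 (48.0% and 50.8% of all tested genes). The summed level of these markers was 1593 to 1674 CPM in sma-3, 1476 to 1730 CPM in sma-9, and 1424 to 1718 CPM in wild-type worms. These ranges overlapped, and all 20 were detected. Among 12 moulting cycle genes, 6 fell (lin-42, mlt-9, mlt-11, nas-37, noah-1 and noah-2) and nas-36 rose in sma-3, and lin-42 and nas-37 fell in sma-9. Their summed level was 2893 to 3913 CPM in sma-3, 4465 to 5234 CPM in sma-9 and 5339 to 7701 CPM in wild-type worms. In sma-3, 1 of 6 epidermis markers was called, the collagen gene dpy-7, which fell by 1.26 on the log2 scale (adjusted p = 0.000838). The median of the 6 was 0.02, and 3 were above 0. Of 3 glia markers 1 was called, vap-1, which fell by 0.43 (adjusted p = 0.0163). In sma-9, 4 of 5 intestine markers and 1 of 5 pharynx markers, the myosin gene myo-2, fell. The part of moulting stage or tissue make-up in the members' values was not tested.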

How the data were processed

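PolyA RNA of 9 libraries was sequenced in paired-end reads of 150 bp. Per the methods, the authors mapped reads to the WS245 genome and counted genes with STAR 2.5.1a, and the deposited values are edgeR's normalized log2 CPM with a prior of 2 reads on average. The prior was removed to give CPM; 100% of values then came out as whole reads within 0.05 reads (values under 2000 reads). Genes with 1 CPM or more in at least 3 libraries (13105) were tested with limma 3.58.1 in R 4.3.3 (lmFit, contrasts.fit, eBayes with trend) on log2(CPM + 1), with 1 coefficient per genotype over all 9 libraries. Tests were two-sided, p-values were adjusted by Benjamini-Hochberg over all tested genes per comparison, and an adjusted p of at most 0.05 is a call. Fold changes on this scale understate changes of low genes. Names and coordinates came from the WBcel235 annotation (46821 IDs matched).

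The members, lists and alternatives were chosen with earlier results of these data known. Members were named if called in any comparison, if among the 10 highest by CPM or 5 highest per kb in wild-type, or if in a role list. The test was checked on simulated data without changes and with changes larger than most of those called here. The simulation changed a single genotype and gave all genes the same spread, so it does not cover calls of smaller changes. Alternatives were other pseudocounts (0.1 and 0.5), filters (none, mean of 5 CPM), normalizations (equal totals, quantile), voom on the recovered reads, no trend, the deposited log2 values, only the compared genotypes, a replicate block, a library number term, stricter thresholds and leaving out each library. P-values measure the spread between these replicates, and counting floors cover counting error only.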

Additional observations from a re-analysis of the deposited data

Results flagged for a closer look

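In 3 members the mutants lay on opposite sides of wild-type, with every sma-3 library below and every sma-9 library above every wild-type library. In these members the direct difference between the mutants passed limma's test. Over all tested genes, 23.5% were below wild-type in every sma-3 library and 10.2% above it in every sma-9 library. The share with both is not given here, so the count of 3 cannot be set against a background. The 3 members were flp-27 (log2 fold change of sma-3 against sma-9 -0.53, limma adjusted p = 0.0044), nlp-57 (-0.52, adjusted p = 0.00875) and nlp-64 (-0.53, adjusted p = 0.0107). nlp-57 was at 1.202, 0.990 and 1.35 CPM in sma-3, 2.04, 2.30 and 2.00 CPM in sma-9, and 1.53, 1.62 and 1.57 CPM in wild-type worms. nlp-64 was at 3.81, 3.77 and 3.57 CPM in sma-3, 6.24, 5.63 and 5.52 CPM in sma-9, and 3.86, 5.11 and 4.31 CPM in wild-type worms, where its lowest library nearly met sma-3. No difference from wild-type passed the test in flp-27, nlp-57 or nlp-64, with adjusted p of 0.132, 0.116 and 0.226 in sma-3 and 0.0638, 0.143 and 0.103 in sma-9. Groups of 3 libraries are too small for a search for single outlying libraries.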

How the results depend on the processing

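No member named in the text changed direction where it had been called. For sma-3 against wild-type (18 calls, median 0.16), the calls ranged from 9 to 19 and the median from 0.11 to 0.19 on leaving out 1 library (0.11 without wild-type replicate 3). An adjusted p of 0.01 left 8 calls and a 2-fold minimum 1. The median was 0.25 with equal totals and 0.11 with quantile normalization, which called nlp-57 lower (-0.34). For sma-9 (17 calls, median 0.24), the calls ranged from 7 to 18 and the median from 0.21 to 0.26. Equal totals gave 28 calls (815 over all tested genes, beside 901 with the deposited scaling) and a median of 0.34. The compared genotypes alone gave 5 (445 over all tested genes), an adjusted p of 0.01 4 and a 2-fold minimum 0. For sma-3 against sma-9 (14 calls, median -0.06), the calls ranged from 8 to 16 and the median from -0.10 to -0.042, with 7 at an adjusted p of 0.01, 1 at 2-fold and a median of -0.085 with equal totals. Equal totals moved the median of all genes to 0.07 in sma-3 and 0.11 in sma-9, and above these the members' medians were 0.18 and 0.23 (0.18 and 0.24 with the deposited scaling, 0.14 and 0.20 with quantile normalization). Replicate numbers did not pair the libraries, since deviations of same-numbered libraries correlated from -0.63 to 0.40. With a replicate block the calls were 15, 10 and 11. The depth limits members under 1 CPM, which were not tested.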

Other observations

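Of the 11 antimicrobial genes nlp-24 to nlp-34, left out of the members, 10 were tested. Their median log2 fold changes were 0.38 in sma-3 and 0.28 in sma-9, beside 0.16 and 0.24 over the members. The log2 fold change was above 0 in 7 of the 10 in sma-3 and 8 in sma-9 (48.0% and 50.8% of all tested genes). In sma-3, nlp-26 (16.1 ± 4.77 CPM, against 6.76 ± 3.99 CPM in wild-type worms, SD, n = 3) rose by 1.23 on the log2 scale (limma adjusted p = 0.0299), nlp-24 (243 ± 30.3 against 136 ± 54.6 CPM) by 0.90 (adjusted p = 0.0275) and nlp-28 (3.90 ± 0.813 against 1.91 ± 1.04 CPM) by 0.80 (adjusted p = 0.0392). None was called in sma-9. Between the mutants nlp-26 was higher in sma-3 (1.36, adjusted p = 0.0233) and nlp-31 lower (-0.69, adjusted p = 0.00947). Exons of nlp-56 lie opposite those of an uncharacterised protein-coding gene of chromosome IV, which was at 0.305 CPM in sma-3, 3.09 CPM in sma-9 and 0.288 CPM in wild-type worms on average, while nlp-56 was not called (0.12 in sma-9, adjusted p = 0.526).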
